A study of Arabidopsis thaliana with 22 samples.

Results

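The comparison described here set leaves of the Arabidopsis thaliana mutant pglp1-1, sampled in low CO2, against wild-type leaves sampled in the same air. It used 5 of the 22 RNA-seq libraries of the series, 2 of pglp1 in low CO2 (pglp1 LC) and 3 of the wild type in low CO2 (WT LC), chosen by genotype and CO2 level alone. The pglp1-1 plants are a single T-DNA insertion line, and all plants compared were raised in air with 1% CO2 (HC) under a 10 h day at about 120 µmol photons per square metre and second. For LC the CO2 was lowered to 0.038% at the end of a night, and mature leaves were taken 8 h after the light came on. Further groups were drawn on where a result needed them, namely pglp1 in HC (2 libraries), the wild type in HC (3 libraries), and the T-DNA lines shm1 and glyk1 in LC (2 libraries each), all raised in the same way. Nothing in the labels says whether a library came from 1 plant or from pooled plants, and the p-values below therefore rest on differences between libraries.

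Photorespiration is the salvage route for 2-phosphoglycolate, which Rubisco makes when it fixes oxygen in place of CO2. Phosphoglycolate phosphatase (PGLP1) takes the first step in the chloroplast. The following steps run through peroxisomes and mitochondria, release hydrogen peroxide, ammonia and CO2, and return glycerate to the chloroplast. Plants without PGLP1 are known to live in air rich in CO2, where little phosphoglycolate forms, and to fail in normal air.

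Summed counts were 12438615 and 16056735 in the pglp1 LC libraries, against 24585963, 11984595 and 17199694 in WT LC. Across 20760 loci Spearman's rho was 0.981 between the pglp1 LC libraries and 0.924 to 0.955 between WT LC libraries. It was 0.817 to 0.865 between a library of pglp1 LC and one of WT LC. In WT LC replicate 3 the counts of 4920 loci, most of them on chromosome 3, stand on the wrong rows. They were treated as missing, so WT LC has 2 values for those loci. WT LC replicate 1 stood apart from the other WT LC libraries in photosynthesis genes. It had the lowest WT LC value at 15 of 15 light-harvesting loci and 19 of 19 photosystem loci that were not displaced. Results that rest on it are given with and without it. Levels are in CPM, the usual depth-scaled count unit, with library sizes adjusted by TMM, and each locus was tested with edgeR's quasi-likelihood test. Adjusted p-values are Benjamini-Hochberg values over all 20438 loci tested, a locus was called below 0.05, and errors are standard errors (SE) of the log2 fold change.

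In LC, 5483 loci (26.8% of those tested) were higher and 6685 loci (32.7%) were lower in pglp1 than in WT. At least a 2-fold difference was estimated for 4414 of the higher and 5638 of the lower loci. With edgeR fitted to these 5 libraries alone, 4422 were higher and 4205 lower. The median log2 fold change of all tested loci was -0.22, which DESeq2's size factors moved by 0.14. List medians below are to be read against that value, and list counts against the 26.8% higher and 32.7% lower of all tested loci. Among the lists plotted, which have at least 6 tested members each, the mitochondrial stress genes stand at the top and the wall-loosening genes at the bottom.

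**Figure D1:**
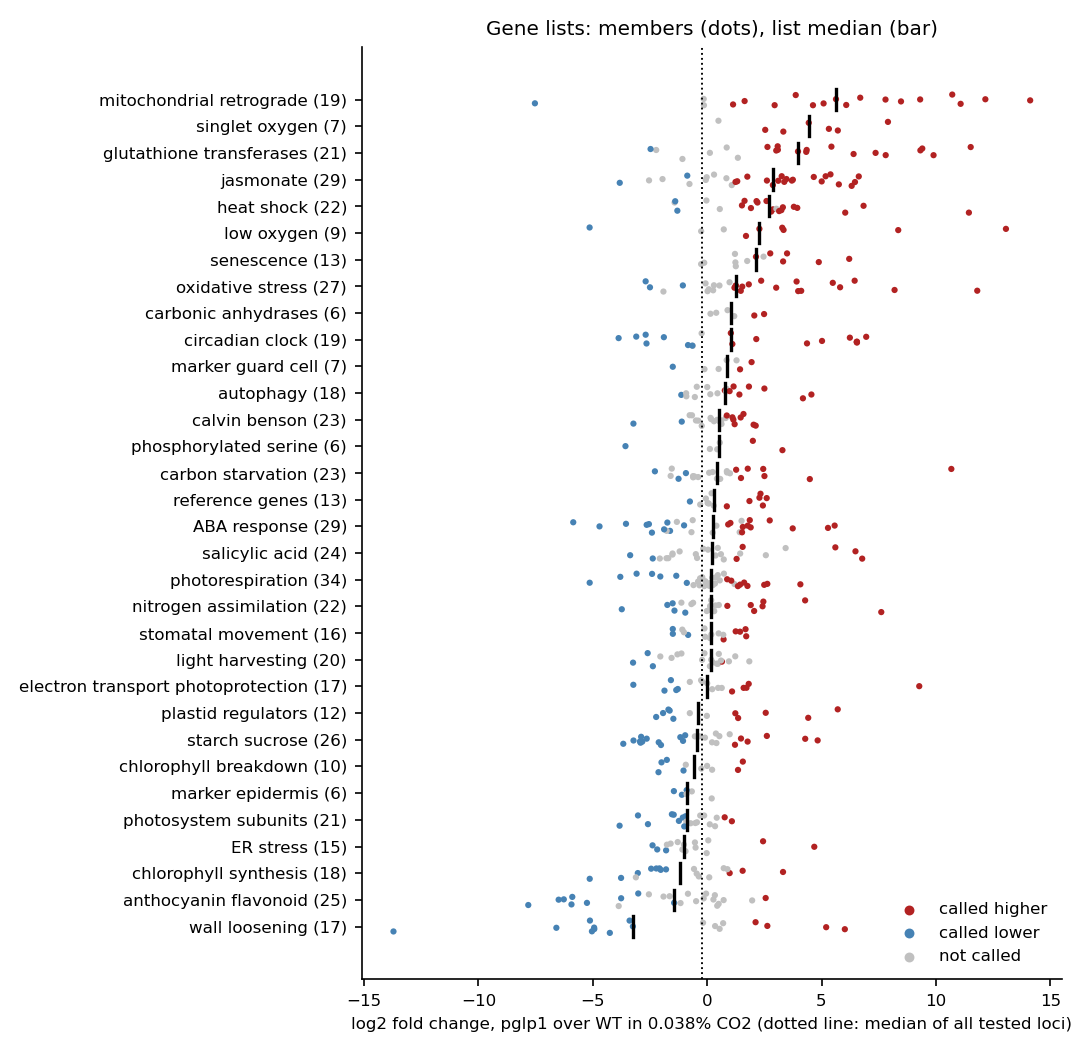
Each dot is a gene of a list, placed by its log2 fold change of pglp1 over WT in 0.038% CO2, and the black bar is the list's median, with the number of tested members in brackets. The mitochondrial stress list has a median of 5.63 and the wall-loosening list one of -3.25, beside -0.22 for all tested loci (dotted line).

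The gene hit by the insertion is present as a pair of near-identical loci. PGLP1 (AT5G36700, chr5:14421182-14424610 in TAIR10.1, minus strand) and AT5G36790 (chr5:14480482-14483927, minus strand) both encode the enzyme. All 3330 windows of 100 bases in the PGLP1 gene also occur in AT5G36790, so reads can be split between them and each value is uncertain on its own. PGLP1 had 4.7 and 5.51 CPM in pglp1 LC, against 32.9, 144 and 37.5 CPM in WT LC (log2 fold change -3.80 ± 0.61, edgeR adjusted p = 7.3e-05). AT5G36790 had 6.7 and 7.49 CPM in pglp1 LC, against 175, 305 and 269 CPM in WT LC (-5.14 ± 0.35, edgeR adjusted p = 2e-08). Both loci were low in each pglp1 library and the groups did not overlap. In HC the values were also low in pglp1, at 10.1 and 11.6 CPM for PGLP1 against 93.1, 83.6 and 91.4 CPM in WT, and the interaction with CO2 was called at neither locus (edgeR adjusted p = 0.44 for PGLP1 and 0.24 for AT5G36790).

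Of 34 photorespiration genes tested, 9 were higher and 7 were lower in pglp1, the PGLP loci among the lower ones, and the list's median log2 fold change was 0.18. The share higher was near the 26.8% of all tested loci, and the share lower was below their 32.7%. The higher genes of the list were mostly in the peroxisome and the glycine step. CAT2, the leaf peroxisomal catalase that removes hydrogen peroxide made by glycolate oxidase, had 3317 and 3939.8 CPM in pglp1 LC, against 232, 309.7 and 105 CPM in WT LC (4.07 ± 0.39, edgeR adjusted p = 4.7e-07). GGAT1, the peroxisomal aminotransferase that turns glyoxylate into glycine, had 5997 and 5387 CPM in pglp1 LC, against 726, 931 and 1102 CPM in WT LC (2.63 ± 0.29, edgeR adjusted p = 1.9e-06). GLDP2, a P protein of the mitochondrial glycine decarboxylase, had 1255 and 1038 CPM in pglp1 LC, against 241, 167 and 202 CPM in WT LC (2.49 ± 0.28, edgeR adjusted p = 2.2e-06). All 3 genes were several times higher in both pglp1 libraries than in any WT library.

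The isoforms of one enzyme did not move together. The other P protein gene, GLDP1, had 1572 and 1334 CPM in pglp1 LC, against 1719, 1133 and 1900.2 CPM in WT LC, with no call (edgeR adjusted p = 0.77). The authors' RPKM, which are per length, do not carry the TMM adjustment of the CPM. They are used here to set isoforms side by side within a group, not to compare genotypes. In RPKM, GLDP1 had 309 and 277 in pglp1 LC, and 619, 392 and 554 in WT LC. GLDP2 had 245 and 214 RPKM in pglp1 LC, against 86.1, 57.3 and 58.6 RPKM in WT LC. The isoforms were thus close in level in pglp1 and far apart in WT. Glycolate oxidase, which makes glyoxylate and hydrogen peroxide, split in the same way: GOX1 was called higher (log2 fold change 1.44, edgeR adjusted p = 0.00042), whereas GOX2 was at 514 and 483 CPM in pglp1 LC and 392 and 546 CPM in WT LC. Reads of GOX1 and GOX2, which are neighbours with similar sequences, may be shared.

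Among transporters and helpers, BOU, a mitochondrial carrier needed for glycine decarboxylation, was higher (1.76, edgeR adjusted p = 5.8e-05). So were the peroxisomal malate dehydrogenase PMDH2 (1.34, edgeR adjusted p = 0.00059) and the ferredoxin-dependent glutamate synthase GLU1 (1.05, edgeR adjusted p = 0.0105), which reassimilates the released ammonia. GLU1 was not called with these 5 libraries alone (edgeR adjusted p = 0.102) or without pglp1 LC replicate 1 (0.0799). BASS6, a glycolate transporter of the chloroplast envelope, was lower, with 1.17 and 2.32 CPM in pglp1 LC and 8.93, 5.27 and 7.86 CPM in WT LC (-2.05, edgeR adjusted p = 0.00025). HPR2, the cytosolic hydroxypyruvate reductase that can bypass the peroxisome, had 6.7 and 7.4 CPM in pglp1 LC, against 57.8, 45.3 and 76.7 CPM in WT LC (-3.09 ± 0.31, edgeR adjusted p = 7.9e-07). SHM2, the minor mitochondrial serine hydroxymethyltransferase, was lower (log2 fold change -2.41, edgeR adjusted p = 0.00016). The main enzymes downstream, SHM1, GLYK and HPR1, showed no call, with 2437 and 2065 CPM of SHM1 in pglp1 LC and 942, 2219.8 and 1732 CPM in WT LC.

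**Figure D2:**
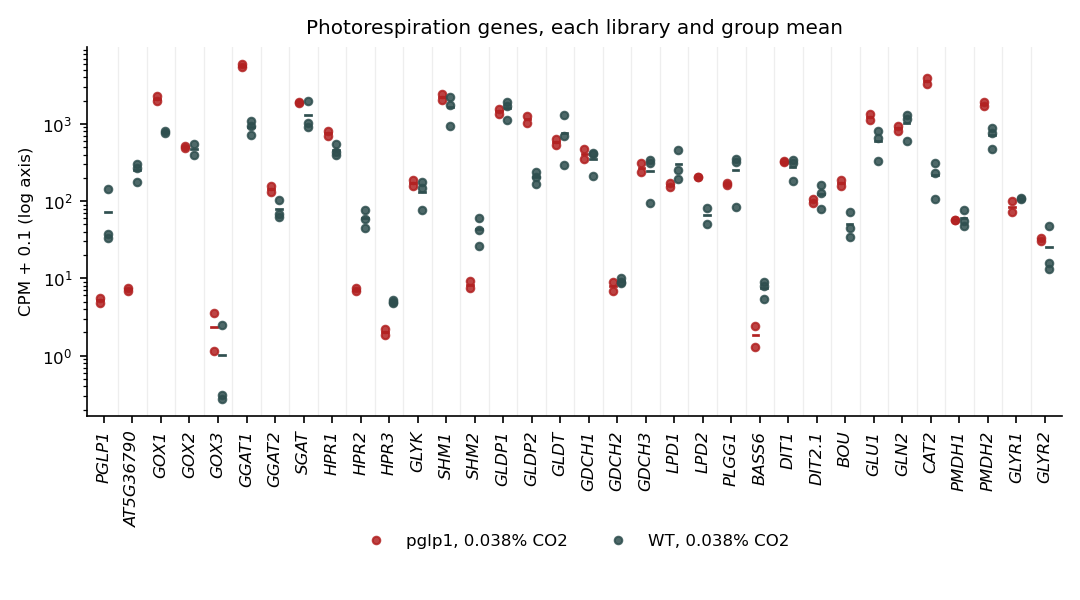
Each point is 1 library's CPM plus 0.1 (log axis) of a photorespiration gene, in pglp1 (left of each pair) and WT (right) in 0.038% CO2, and the short bars are group means. CAT2 and GGAT1 lie above every WT value and HPR2 below every WT value, whereas SHM1 and GLDP1 overlap.

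Mitochondria signal trouble in their electron transport to the nucleus, and in Arabidopsis the membrane-bound factor NAC017 and its target NAC013 bind a short promoter element, the mitochondrial dysfunction motif, in genes such as alternative oxidase. Of 19 such stress genes tested, 16 were higher and 1 was lower in pglp1 LC, with a median log2 fold change of 5.63. The list's summed level over the 15 loci with all values was 12453 to 13155 CPM in pglp1 LC, against 259 to 404 CPM in WT LC. The letters around the motif are shown for the 6 higher genes whose match lies before the annotated gene start and for NAC017. Binding of the factors named to these promoters was not measured here. Among these 6, AOX1B was not called by DESeq2 (adjusted p = 0.105) and was not tested with these 5 libraries alone. AOX1A, UGT74E2 and AT12CYS-2 also hold matches, but not wholly before the annotated gene start, and their letters are not shown. Capitals mark the motif as read on the gene's strand, in TAIR10.1 of RefSeq, where it can run in either direction.
UPOX: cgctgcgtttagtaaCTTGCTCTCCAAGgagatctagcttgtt
HSP23.5: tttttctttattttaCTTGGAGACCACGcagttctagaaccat
AOX1B: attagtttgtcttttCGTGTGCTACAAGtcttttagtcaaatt
NDB2: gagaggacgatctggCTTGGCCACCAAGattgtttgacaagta
NDA1: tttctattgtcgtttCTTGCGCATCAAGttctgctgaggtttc
NDB3: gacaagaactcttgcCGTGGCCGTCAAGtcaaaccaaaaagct
NAC017: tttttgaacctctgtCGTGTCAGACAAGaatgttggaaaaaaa
These stretches lie at chr2:9254312-9254354 for UPOX, chr5:20891038-20891080 for HSP23.5, chr3:7903964-7904006 for AOX1B, chr4:2572333-2572375 for NDB2, chr1:2204019-2204061 for NDA1, chr4:11439605-11439647 for NDB3 (minus strand, the others plus) and chr1:12451280-12451322 for NAC017. The motif ended 39 bases before the gene start in UPOX and 114 bases before it in NDB3.

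UPOX, a small mitochondrial protein known as a marker of oxidative stress in that organelle, had 908 and 879 CPM in pglp1 LC, against 2.4, 5.2 and 4.59 CPM in WT LC (7.80 ± 0.57, edgeR adjusted p = 3.8e-08). AOX1A, the main alternative oxidase, which passes electrons to oxygen without pumping protons, had 4284 and 3991 CPM in pglp1 LC, against 45.7 and 34.3 CPM in WT LC, where replicate 3 is missing (log2 fold change 6.69, edgeR adjusted p = 8e-08). AOX1D, its stress-responsive isoform, had 1587 and 1489 CPM in pglp1 LC, against 1.66, 0 and 0.172 CPM in WT LC (11.1, edgeR adjusted p = 0.0001). Per length, AOX1A stood first among the isoforms in pglp1, with 1969 and 1939 RPKM, and AOX1D second with 809 and 803 RPKM, whereas AOX1B stayed below 1 RPKM. AOX1B had 19 counts in pglp1 LC and none in WT LC, at least 14.2-fold higher by a floor of 3 counts over the group. AOX1C was the lower member, at 0 counts in pglp1 LC and 24 counts in WT LC, at least 3.56-fold lower by the same floor.

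The alternative NADH dehydrogenases, which feed electrons past complex I, rose as well apart from NDB1. NDB2 had 1395 and 1213 CPM in pglp1 LC, against 38.8, 7.77 and 11 CPM in WT LC (6.08, edgeR adjusted p = 1.3e-05). NDB4 had 270.3 and 189.9 CPM in pglp1 LC, with 3 counts in all in WT LC, a ratio of 4675 with a 95% counting interval of 1599 to 22680. NDB1 was at 17.62 and 12.1 CPM in pglp1 LC and 8.31, 14.5 and 26.3 CPM in WT LC, with no call. The factor gene NAC013 had 958 and 723 CPM in pglp1 LC, against 22.7, 9.23 and 18.8 CPM in WT LC (5.63, edgeR adjusted p = 1.5e-07). NAC017, whose protein is released from a membrane when it acts, was at 53.8 and 58 CPM in pglp1 LC and 76.2, 42.7 and 67.4 CPM in WT LC (edgeR adjusted p = 0.6). UGT74E2, a glucosyltransferase of the auxin indole-3-butyric acid, had 5689 and 5477 CPM in pglp1 LC, against 0.227, 0.208 and 0.516 CPM in WT LC (14.12 ± 1.22, edgeR adjusted p = 2e-07). HSP23.5, a mitochondrial small heat shock protein, had 1184 and 1269.6 CPM in pglp1 LC, against 0.844, 1.73 and 3.33 CPM in WT LC (9.31, edgeR adjusted p = 2.9e-06).

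**Figure D3:**
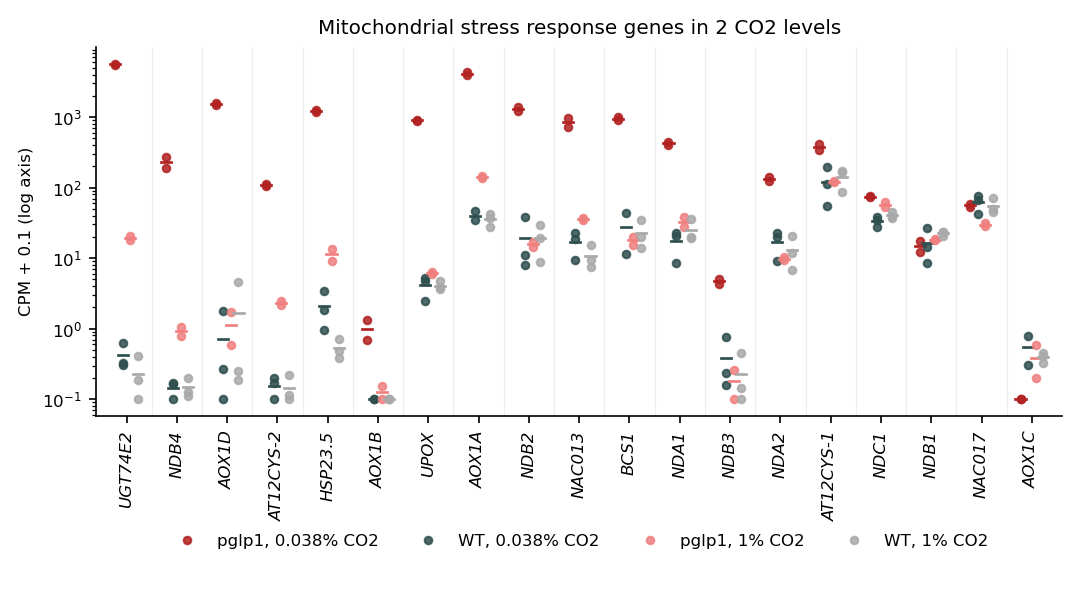
Each point is 1 library's CPM plus 0.1 (log axis) of a mitochondrial stress gene, in the order pglp1 and WT in 0.038% CO2, then pglp1 and WT in 1% CO2, and short bars are group means. In 0.038% CO2 UGT74E2 is at 5689 and 5477 CPM in pglp1 and below 1 CPM in all 3 WT libraries, whereas NAC017 and NDB1 overlap.

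The motif was counted in promoters from 250 bases before to 50 bases after the gene start, on both strands, for 20357 tested loci. It was in 7.87% of 661 promoters of genes higher by over 5 on the log2 scale, in 2.12% of all called higher, in 0.571% of those called lower and in 1.19% of all tested promoters. It was in 10 of 19 promoters of the mitochondrial stress list, whose genes are in part known for it. The W-box core TTGACC, the element of WRKY factors, was in 26.3% of promoters of genes higher by over 5, in 18.5% of those called higher, 12.1% of those called lower and 14.6% of all. The heat shock element core GAANNTTC was in 18.6%, 13.2%, 10.4% and 11.7% of the same sets. The G-box CACGTG was in 10.1%, 10.2%, 7.49% and 8.76%, and the evening element AAAATATCT in 2.87%, 2.45%, 3.57% and 3.05%. By list, the W-box core was in 0 of 24 promoters of the salicylic acid list. The heat shock element core was in 11 of 22 heat shock promoters, and the evening element in 6 of 19 clock promoters. No match of letters shows that a factor bound there.

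**Figure D4:**
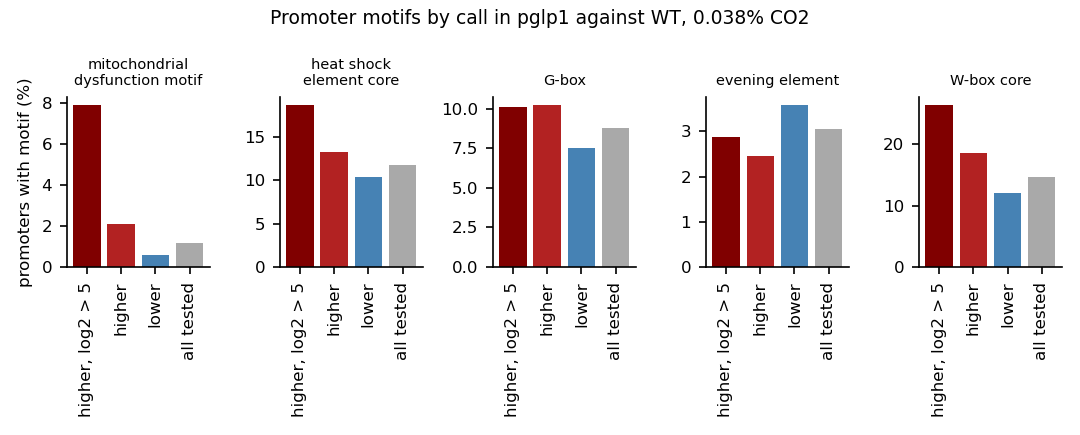
Bars give the percentage of promoters that hold each motif on either strand, among loci higher by over 5 (log2) in pglp1, all called higher, all called lower and all tested in 0.038% CO2, with a separate vertical axis from 0 for each motif. The mitochondrial dysfunction motif is in 7.87% of the first set and 1.19% of all tested promoters.

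Genes of other oxidative signals were higher too. Of 27 oxidative stress genes, 16 were higher and 3 lower, with a median of 1.26, and of 7 genes that respond to singlet oxygen in the chloroplast, 6 were higher and none was called lower, with a median of 4.44. WRKY33, a factor of defence and camalexin synthesis, had 2268 and 1625 CPM in pglp1 LC, against 34.6, 25.7 and 51 CPM in WT LC (5.71 ± 0.44, edgeR adjusted p = 6.1e-08). ZAT10, a zinc finger factor that responds to excess light, had 598 and 533 CPM in pglp1 LC, against 9.71, 2.08 and 7.4 CPM in WT LC (6.45 ± 0.54, edgeR adjusted p = 1.5e-07). HSFA4A, a heat shock factor that responds to hydrogen peroxide, had 1631 and 1529 CPM in pglp1 LC, against 37.2, 21.2 and 47 CPM in WT LC (5.49 ± 0.39, edgeR adjusted p = 2.9e-08). RBOHF, an NADPH oxidase of the plasma membrane, rose by 4.11 (edgeR adjusted p = 4.8e-08).

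The catalase genes CAT2 and CAT3 moved in opposite directions, and CAT1 was not called (edgeR adjusted p = 0.77). CAT3, whose transcript peaks in the evening in wild-type plants, had 969 and 1569 CPM in pglp1 LC, against 7880.4, 5596 and 8062 CPM in WT LC (-2.50 ± 0.42, edgeR adjusted p = 9.7e-05). Per length, CAT2 had 988 and 1240 RPKM and CAT3 had 317 and 543 RPKM in pglp1 LC. In WT LC the order was turned, with CAT2 at 126, 162 and 46.2 RPKM and CAT3 at 4727, 3221 and 3914 RPKM. FSD3, an iron superoxide dismutase of the plastid nucleoid, had 3.76 and 3.36 CPM in pglp1 LC, against 19.1, 32.8 and 17 CPM in WT LC (-2.69, edgeR adjusted p = 0.00039).

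Glutathione transferases, which couple glutathione to reactive compounds, had 15 of 21 members higher and 1 lower, with a median of 3.97. GSTU25 had 233 and 150.1 CPM in pglp1 LC, against 0.0974, 0 and 0.0573 CPM in WT LC (11.52 ± 1.22, edgeR adjusted p = 1.5e-06). GSTU5, already expressed in WT, had 2222 and 1929 CPM in pglp1 LC, against 131, 102 and 164 CPM in WT LC (3.97 ± 0.38, edgeR adjusted p = 4.8e-07). GSTF9 was the lower member, with 238 and 349 CPM in pglp1 LC and 2120.1, 1036 and 1739 CPM in WT LC (-2.47, edgeR adjusted p = 6.4e-05). The tau class genes GSTU1 to GSTU7 stand in a row on chromosome 2, and neighbours of similar sequence may share reads.

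In photosynthesis the picture was mixed, and WT LC replicate 1 decided part of it. Of 23 Calvin-Benson cycle genes, 8 were higher and 2 lower (median 0.53), and without WT LC replicate 1 the counts were 7 and 4. Of 20 light-harvesting genes, 1 was higher and 3 were lower (median 0.15), and without that library none was called higher by edgeR and 7 were lower. Of 21 photosystem subunit genes, 2 were higher and 9 lower (median -0.90), against none and 14 without it. With these 5 libraries alone edgeR called 4 Calvin-Benson genes higher and 1 lower, 1 light-harvesting gene lower and 3 photosystem genes lower. GAPA1, a subunit of the chloroplast glyceraldehyde-3-phosphate dehydrogenase, had 5698 and 4536 CPM in pglp1 LC, against 739 and 1611 CPM in WT LC with replicate 3 missing (2.12 ± 0.40, edgeR adjusted p = 0.00031). The plastid triose phosphate isomerase PDTPI had 888 and 772 CPM in pglp1 LC, against 195, 368 and 266 CPM in WT LC (1.59 ± 0.24, edgeR adjusted p = 4.7e-05). RPI3, the ribose-5-phosphate isomerase of the same cycle, went the other way, with 22.6 and 28.2 CPM in pglp1 LC and 126, 236 and 351 CPM in WT LC (-3.22 ± 0.45, edgeR adjusted p = 1.9e-05). The Rubisco small subunit gene RBCS1A, of a family with near-identical members, had 18254 and 14435 CPM in pglp1 LC, against 3687, 12057 and 15996 CPM in WT LC, with no call (edgeR adjusted p = 0.27).

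Members of the same photosystem differed. The photosystem I gene PSAD1 had 288 and 324 CPM in pglp1 LC, against 1132, 2429 and 3909 CPM in WT LC (-3.02 ± 0.45, edgeR adjusted p = 3.3e-05), and its copy PSAD2 was lower (log2 fold change -3.83, edgeR adjusted p = 5.3e-05). LHCB2.2, an antenna protein of photosystem II, had 179 and 223 CPM in pglp1 LC, against 649, 2475 and 2584 CPM in WT LC (-3.24 ± 0.69, edgeR adjusted p = 0.00085). The abundant antenna gene CAB1 was at 48348 and 42172 CPM in pglp1 LC and 9209, 22224 and 38764 CPM in WT LC, with no call (edgeR adjusted p = 0.12). CAB1, CAB2 and CAB3 share long stretches of sequence. CAB1 was abundant in all 5 libraries, as in leaf tissue.

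Photoprotection and plastid regulators held some of the sharper differences. ELIP2, an early light-induced protein that binds pigments under excess light, had 127 and 133 CPM in pglp1 LC, against 0.227, 0.347 and 0.0573 CPM in WT LC (9.27 ± 0.95, edgeR adjusted p = 1.7e-06). PGR5, a component of cyclic electron flow, rose by 1.72 (edgeR adjusted p = 1.3e-05). ATPD, the delta subunit of the chloroplast ATP synthase, had 81.1 and 98.1 CPM in pglp1 LC, against 302, 958 and 1258 CPM in WT LC (-3.23, edgeR adjusted p = 0.0003). Of 12 regulators of plastid genes, 5 were higher and 5 lower. SIG5, a plastid sigma factor that responds to blue light and stress, had 625 and 745 CPM in pglp1 LC, against 19, 8.47 and 11.6 CPM in WT LC (5.71 ± 0.53, edgeR adjusted p = 3.7e-07). HY5, the light-signalling factor, had 117 and 101 CPM in pglp1 LC, against 8.02, 2.71 and 4.36 CPM in WT LC (4.42 ± 0.38, edgeR adjusted p = 1.7e-07). GLK1, a factor that drives photosynthesis genes, had 71 and 75.6 CPM in pglp1 LC, against 232, 207 and 246 CPM in WT LC (-1.64 ± 0.21, edgeR adjusted p = 9.5e-06).

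Chlorophyll synthesis genes were lower more often than higher, 8 against 3 of 18, with a median of -1.19, and 11 were lower without WT LC replicate 1. PORB, the protochlorophyllide reductase that works by day, had 44.6 and 43 CPM in pglp1 LC, against 602, 2178 and 1837 CPM in WT LC (-5.13 ± 0.81, edgeR adjusted p = 5.7e-05). CHLI2, a subunit of magnesium chelatase, had 5.99 and 6.2 CPM in pglp1 LC, against 35.4, 107 and 107 CPM in WT LC (-3.76, edgeR adjusted p = 0.00011). HEMA1, the glutamyl-tRNA reductase at the head of the pathway, was higher, with 1919 and 1695 CPM in pglp1 LC and 54.6, 329 and 161 CPM in WT LC (3.32 ± 0.52, edgeR adjusted p = 5.5e-05). Of 10 genes of chlorophyll breakdown, 2 were higher and 4 lower (median -0.60), against 1 and 3 without WT LC replicate 1 (median 0.04). NYE1 (SGR1), the magnesium dechelatase of senescing leaves, rose by 1.56 (edgeR adjusted p = 0.00052), whereas NYC1, a chlorophyll b reductase, fell by 2.00 (edgeR adjusted p = 4.1e-05).

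Starch and sucrose genes had 12 of 26 members lower and 6 higher. Those lower included steps of starch breakdown at night. DPE1, the plastid disproportionating enzyme, had 7.17 and 6.2 CPM in pglp1 LC, against 82.9, 95.8 and 75.7 CPM in WT LC (-3.67 ± 0.31, edgeR adjusted p = 1.6e-07). PWD, the phosphoglucan water dikinase, had 54 and 67.2 CPM in pglp1 LC, against 465, 384 and 450.4 CPM in WT LC (-2.84 ± 0.32, edgeR adjusted p = 2.1e-06). GBSS1, the granule-bound starch synthase that makes amylose, had 639 and 685 CPM in pglp1 LC, against 52.1, 11.5 and 5.68 CPM in WT LC (4.83 ± 0.79, edgeR adjusted p = 8.8e-05). The carbonic anhydrases CA2 and CA4, which convert CO2 and bicarbonate, were higher by 2.49 and 2.06 (edgeR adjusted p = 0.00033 and 1.6e-05), and 4 of 6 members were higher without WT LC replicate 1.

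Of 23 genes that mark carbon starvation 7 were higher and 3 lower, and the share higher was near the 26.8% of all tested loci. Their median was 0.43, or -0.38 without pglp1 LC replicate 2. Of 18 autophagy genes, which recycle cell contents, 8 were higher and 1 lower. ATG8E, whose protein coats the growing autophagosome, had 491 and 464 CPM in pglp1 LC, against 16, 21.1 and 23.8 CPM in WT LC (4.56 ± 0.37, edgeR adjusted p = 9.2e-08). ATG8H had 82.2 and 92.3 CPM in pglp1 LC, against 5.1, 3.96 and 5.28 CPM in WT LC (4.19 ± 0.32, edgeR adjusted p = 5.5e-08). DIN9, a dark-inducible gene, rose by 2.50 (edgeR adjusted p = 1.5e-05), and MCCB, which breaks down leucine, fell by 2.28 (edgeR adjusted p = 0.00039). Of 13 senescence genes, 6 were higher and none was called lower by edgeR, with ATAF1 at 162 and 114 CPM in pglp1 LC and 13.3, 6.59 and 16.7 CPM in WT LC (3.49 ± 0.34, edgeR adjusted p = 4.9e-07).

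Nitrogen genes were split, 7 higher and 5 lower of 22, beside 26.8% higher and 32.7% lower of all tested loci. AMT2, an ammonium transporter, had 392 and 343 CPM in pglp1 LC, against 17.3, 16.7 and 22.7 CPM in WT LC (4.28 ± 0.37, edgeR adjusted p = 2e-07). NRT1.8, which retrieves nitrate from the xylem, had 50.3 and 31.8 CPM in pglp1 LC, against 0.195, 0.0694 and 0.344 CPM in WT LC (7.61 ± 0.70, edgeR adjusted p = 5.2e-07). In the phosphorylated pathway of serine synthesis, which makes serine without photorespiration, PGDH1 had 384 and 642 CPM in pglp1 LC, against 85.7, 38 and 33.3 CPM in WT LC (3.29 ± 0.46, edgeR adjusted p = 1.7e-05). PSAT1, the aminotransferase after it, rose by 2.00 (edgeR adjusted p = 0.0003), and its minor copy PSAT2 fell by 3.57 (edgeR adjusted p = 0.00044).

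Jasmonate genes had 19 of 29 members higher and 2 lower, with a median of 2.87. The higher ones included enzymes of synthesis and the JAZ repressors, which respond to the hormone. OPR1, a reductase related to the jasmonate enzyme OPR3, had 1488 and 1143 CPM in pglp1 LC, against 36.4, 32.1 and 40.4 CPM in WT LC (5.18 ± 0.37, edgeR adjusted p = 3.5e-08). OPR3 itself, the step in jasmonate synthesis, had 772 and 642 CPM in pglp1 LC, against 129, 45.8 and 115 CPM in WT LC (2.87, edgeR adjusted p = 9.3e-05). JAZ8 had 16.6 and 16 CPM in pglp1 LC, against 0.325, 0.0694 and 0 CPM in WT LC (6.63 ± 0.59, edgeR adjusted p = 3.6e-07). The late jasmonate markers VSP2 and PDF1.2 were not called, with VSP2 at 389.8 and 303 CPM in pglp1 LC and 2707, 237 and 3104 CPM in WT LC.

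Of 24 salicylic acid and camalexin genes 5 were higher and 2 lower (median 0.20), beside 26.8% and 32.7% of all tested loci. Without WT LC replicate 1 the counts were 7 and 1 (median 1.303). The lower genes were NIMIN1 and WRKY38, neither called with these 5 libraries alone (edgeR adjusted p = 0.0725 and 0.0632). UGT74F2, a glucosyltransferase of salicylic acid, had 1129 and 1985 CPM in pglp1 LC, against 12.7, 10.8 and 19.1 CPM in WT LC (6.78 ± 0.53, edgeR adjusted p = 7.4e-08), and NPR1, a salicylic acid receptor, rose by 1.29 (edgeR adjusted p = 0.00013). Abscisic acid genes were split, 11 higher and 10 lower of 29, and 14 and 6 without WT LC replicate 1. The receptors PYL5 and PYL6 were higher, PYL5 with 50.5 and 54.9 CPM in pglp1 LC and 0.877, 1.25 and 2.01 CPM in WT LC (5.28 ± 0.48, edgeR adjusted p = 2.6e-07). The response gene RD29A was lower, with 379.6 and 878 CPM in pglp1 LC and 4413, 2184 and 3460.3 CPM in WT LC (-2.41, edgeR adjusted p = 0.0023). Of 16 genes of stomatal movement 5 were higher and 3 lower. OST1, the kinase that closes stomata, was higher by 1.71 (edgeR adjusted p = 0.00025), and the potassium channel KAT1 was lower (log2 fold change -1.50, edgeR adjusted p = 0.0013).

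Heat shock genes had 16 of 22 members higher and 2 lower, with a median of 2.70. HSFA2, a heat-induced factor, had 139 and 169 CPM in pglp1 LC, against 0.942, 0.972 and 2.18 CPM in WT LC (6.84 ± 0.58, edgeR adjusted p = 1.6e-07). HSP23.6, a mitochondrial small heat shock protein, had 45.4 and 59.5 CPM in pglp1 LC and 1 count in all in WT LC, a ratio of 3352 with a counting interval of 600.4 to 132537. Among cytosolic small heat shock genes, HSP17.8 had 24.1 and 34.1 CPM in pglp1 LC, against 0.747, 0.139 and 0.287 CPM in WT LC (6.04, edgeR adjusted p = 4.2e-05). HSP17.6A had 1.41 and 2.07 CPM in pglp1 LC, against 0.162, 0.0694 and 0.115 CPM in WT LC, and its call was lost without pglp1 LC replicate 2 (edgeR adjusted p = 0.0584). HSP21 of the chloroplast had 1 count in all in pglp1 LC and 10 counts in WT LC. Of 15 genes of the endoplasmic reticulum stress response 2 were higher and 3 lower (median -1.02), against 2 and 1 without WT LC replicate 1 (median 0.04). The transcription factor genes BZIP60 and BZIP28 were higher, by 4.68 and 2.44 (edgeR adjusted p = 4.7e-07 and 3.7e-06). The chaperones CRT2, PDIL1-1 and HSP90.7 were lower, with log2 fold changes of -2.18, -1.80 and -2.39 (edgeR adjusted p = 0.027, 0.035 and 0.0049). CRT2 and PDIL1-1 were no longer called without WT LC replicate 1 (edgeR adjusted p = 0.261 and 0.298), and HSP90.7 then stood at -1.48. Without pglp1 LC replicate 1 none of the 3 was called (edgeR adjusted p = 0.142, 0.263 and 0.0558).

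Of 9 genes induced by low oxygen 6 were higher and 1 lower. HRE2, an ethylene response factor of hypoxia, had 194 and 122 CPM in pglp1 LC and 1 count in all in WT LC, a ratio of 9541 with a counting interval of 1711 to 376957. PDC1, pyruvate decarboxylase, had 178 and 292 CPM in pglp1 LC, against 1.27, 0.208 and 0.459 CPM in WT LC (8.35 ± 0.72, edgeR adjusted p = 1.9e-07). HRA1, a repressor of the same response, had 1 count in all in pglp1 LC and 81 counts in WT LC.

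Clock genes changed in both directions, 10 higher and 7 lower of 19. The Arabidopsis clock runs through factors that peak at dawn (CCA1, LHY, RVE genes), then by day (PRR9, PRR7, PRR5) and at dusk (TOC1, GI, ELF3, ELF4, LUX), and the plants were sampled late in a 10 h day. CCA1 had 444 and 391 CPM in pglp1 LC, against 5.03, 7.91 and 3.73 CPM in WT LC (6.24 ± 0.37, edgeR adjusted p = 6e-09). LHY had 207 and 153 CPM in pglp1 LC, against 1.88, 2.85 and 1.09 CPM in WT LC (6.55 ± 0.42, edgeR adjusted p = 1.1e-08). PRR9 had 1057 and 879 CPM in pglp1 LC, against 11.5, 14.4 and 5.22 CPM in WT LC (6.55, edgeR adjusted p = 5.1e-08). These 3 morning genes were high in both pglp1 libraries and low in every WT library.

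Several genes that peak later in the day ran the other way. ELF3 had 9.05 and 11 CPM in pglp1 LC, against 80.2, 69.7 and 109 CPM in WT LC (-3.10 ± 0.24, edgeR adjusted p = 7.7e-08). PRR3 had 2 and 9.3 CPM in pglp1 LC, against 93, 73.7 and 86.1 CPM in WT LC (-3.87 ± 0.51, edgeR adjusted p = 1e-05), and FKF1, a blue-light photoreceptor, fell by 2.65 (edgeR adjusted p = 2.2e-05). PRR7 was at 167 and 162 CPM in pglp1 LC and 156, 199.7 and 229 CPM in WT LC, and TOC1 at 90.8 and 109 CPM in pglp1 LC and 118, 104 and 243 CPM in WT LC, with no call for either. GI and LUX were called lower, but not with these 5 libraries alone (edgeR adjusted p = 0.11 for GI and 0.212 for LUX), and without pglp1 LC replicate 1 they stood at 0.122 and 0.34. LUX was also not called without any 1 of the WT LC libraries (0.0783 to 0.099). The labels give the same sampling time for both genotypes, and no library-level record of the hour was used here.

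**Figure D5:**
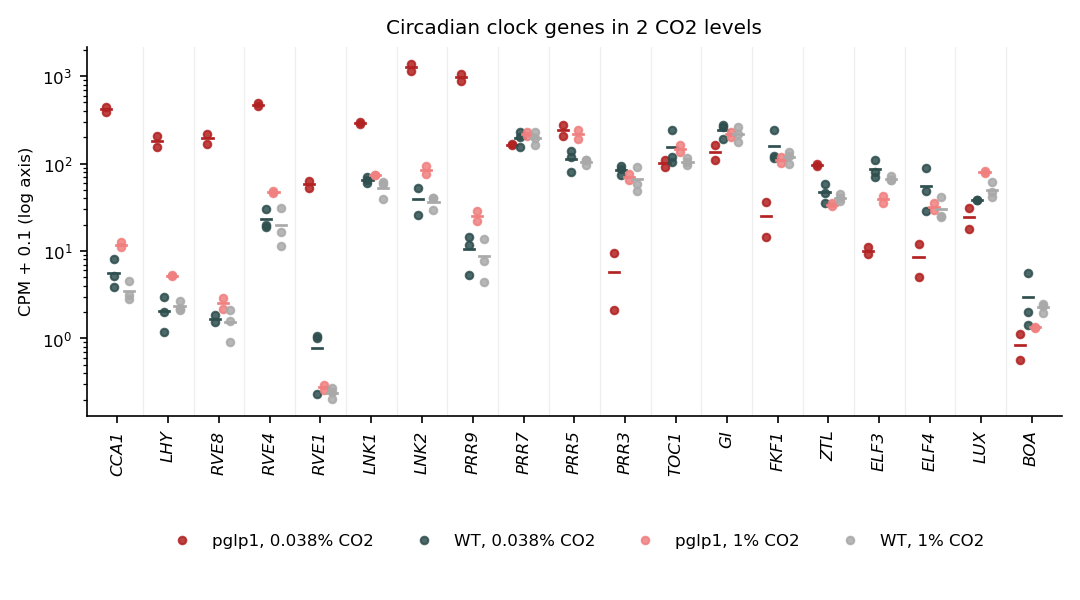
Each point is 1 library's CPM plus 0.1 (log axis) of a clock gene, in the order pglp1 and WT in 0.038% CO2, then pglp1 and WT in 1% CO2, with short bars for group means. In 0.038% CO2 CCA1 is at 444 and 391 CPM in pglp1 and at 5.03, 7.91 and 3.73 CPM in WT, and ELF3 is lower in pglp1 than in WT.

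Cell wall genes of growth had the lowest median of the lists plotted. Of 17 wall-loosening genes 9 were lower and 4 higher (median -3.25). XTH31, a hydrolase of xyloglucan, had no count in pglp1 LC and 21.5 and 47.9 CPM in WT LC, with replicate 3 missing, at least 200.5-fold lower in pglp1 by a floor of 3 counts over the group. EXPA4, an expansin, had 0.822 and 0.775 CPM in pglp1 LC, against 35.1, 16.2 and 27.4 CPM in WT LC (-5.04 ± 0.54, edgeR adjusted p = 1.4e-06). TCH4 (XTH22), which responds to touch, was higher, with 1234 and 1026 CPM in pglp1 LC and 8.28, 15.2 and 28.9 CPM in WT LC (6.02 ± 0.48, edgeR adjusted p = 8.8e-08). Of 25 anthocyanin and flavonoid genes 9 were lower and 1 higher (median -1.44). That count rested on WT LC replicate 1, without which 5 were higher and 1 lower (median 0.11). UGT75C1, an anthocyanin glucosyltransferase, shows it, with 1.76 and 1.64 CPM in pglp1 LC, against 283, 9.79 and 17.3 CPM in WT LC (-5.93, and -3.00 without that library). With these 5 libraries alone UGT75C1 was not called (edgeR adjusted p = 0.0516).

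Beyond the lists, the highest fold changes belonged to genes nearly silent in WT LC. XTH18, a xyloglucan endotransglucosylase, had 1806 and 899 CPM in pglp1 LC, against 0.13, 0.0694 and 0 CPM in WT LC (14.04 ± 1.27, edgeR adjusted p = 3.6e-07). DTX1, a MATE transporter, had 1245 and 934 CPM in pglp1 LC, against 0.13, 0.139 and 0 CPM in WT LC (13.45 ± 1.54, edgeR adjusted p = 3.1e-06). SUC7, annotated as a sucrose transporter, had 118 and 127 CPM in pglp1 LC and 1 count in all in WT LC. sks8, of the multicopper oxidase family of SKU5, had 128 and 98.4 CPM in pglp1 LC and no count in WT LC, at least 2315-fold higher by the floor of 3 counts. TPS2, annotated as a trehalose-phosphatase/synthase, IDL1, a peptide of the IDA family, CYP96A5, a cytochrome P450, and ACHT3, a thioredoxin, had no count in WT LC either, and were at least 1714-, 775.7-, 416.1- and 310.2-fold higher.

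At the other end, MLP423, a protein like those of the major latex family, had 0.235 and 0.172 CPM in pglp1 LC, against 32.7, 18.3 and 26 CPM in WT LC (-6.99 ± 1.39, edgeR adjusted p = 0.00051). RFC3, annotated as a ribosomal protein, had 0.47 and 0.517 CPM in pglp1 LC, against 54.6 and 75 CPM in WT LC with replicate 3 missing (-7.02 ± 0.93, edgeR adjusted p = 1.9e-05). GATL3, of the galacturonosyltransferase-like family, and CRR42, needed for the chloroplast NDH complex, each had 3 counts in all in pglp1 LC, and were lower by ratios of 104 and 99.8, with counting intervals of 35.6 to 507 and 34 to 485. NUDT24, a nudix hydrolase, had 0.117 and 0.258 CPM in pglp1 LC, against 32.6, 26.9 and 9.81 CPM in WT LC (-6.86, edgeR adjusted p = 7.3e-05). The lipid transfer protein genes LTP3 and LTP4 and the anthocyanin acyltransferase 5MAT also ranked here, but were no longer called without WT LC replicate 1, and the beta-amylase BAM5 not without pglp1 LC replicate 2 (edgeR adjusted p = 0.0762). LTP3 had 1.06 and 1.98 CPM in pglp1 LC, against 1144, 30.4 and 2.64 CPM in WT LC (edgeR adjusted p = 0.172 without WT LC replicate 1).

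In whole leaves, fewer cells of a type and less RNA per cell cannot be told apart, so markers of cell types were followed beside these results. Of 7 guard cell markers 2 were higher (FAMA and HT1) and 1 lower (KAT1), HT1 not with these 5 libraries alone (edgeR adjusted p = 0.0718). The summed level of 6 of them was 2181 to 3049.7 CPM in pglp1 LC and 139 to 2228 CPM in WT LC, most of it TGG1. Of 6 epidermis markers 3 were lower (PDF2, FDH and CER6, with log2 fold changes of -1.11, -0.90 and -1.46) and none was called higher by edgeR. The list summed to 482 to 577 CPM in pglp1 LC and 685 to 1473 CPM in WT LC. Of 4 phloem markers APL was higher and PP2-A1 lower, and PP2-A1 was not called without WT LC replicate 1 (edgeR adjusted p = 0.16) or pglp1 LC replicate 1 (0.135). Of 2 root markers tested SCR was lower, with 9.99 and 11.97 CPM in pglp1 LC and 23.7 and 19.2 CPM in WT LC with replicate 3 missing (log2 fold change -0.96, edgeR adjusted p = 0.0025). PYK10, the other, was not called, with 6.34 and 3.53 CPM in pglp1 LC and 26.9 and 0 CPM in WT LC, also with replicate 3 missing. The root marker COBL9 and the flower marker AP1 were at 0 in all 5 libraries. The 1 flower marker tested, AG, had no count in pglp1 LC and 36 counts in WT LC, at least 3.86-fold lower by the floor of 3 counts over the group. Its call was lost without pglp1 LC replicate 1 (edgeR adjusted p = 0.065), without pglp1 LC replicate 2 (0.0917) or without WT LC replicate 1 (0.074). Of 13 genes in common use as references 6 were higher and 1 lower, ACT2 by 2.60, UBQ10 by 2.33 and UBC9 by 2.28. Ribosomal RNA loci took 1.16 and 0.639% of counts in pglp1 LC, against 0.213 and 0.205% in WT LC replicates 1 and 2. The part of these shifts in the other results was not tested.

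To see which differences belonged to low CO2, the pglp1-WT difference in LC was tested against that in HC. It was more positive in LC at 4203 loci (20.6%) and more negative at 4156 loci (20.3%). Of the mitochondrial stress genes 14 were more positive and 1 more negative, of the glutathione transferases 16 and none, and of the jasmonate genes 21 and 1. CAT2 was at 291 and 349 CPM in pglp1 HC and 168, 187 and 114 CPM in WT HC (interaction 3.04, edgeR adjusted p = 0.00038). GGAT1 was at 1432 and 1634 CPM in pglp1 HC and 1153, 952 and 623 CPM in WT HC (interaction 1.88, edgeR adjusted p = 0.002). For both, the interaction was smaller than the difference in LC. CCA1 stood at 10.9 and 12.6 CPM in pglp1 HC and 4.47, 3.04 and 2.75 CPM in WT HC (interaction 4.47, edgeR adjusted p = 6.7e-06).

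Some of these genes already had pglp1 values above all WT values in HC, a difference for which no test result is given here. UGT74E2 was at 18.21 and 20.2 CPM in pglp1 HC and 0.0861, 0 and 0.306 CPM in WT HC (interaction 6.37, edgeR adjusted p = 0.004). AOX1A was at 138 and 147 CPM in pglp1 HC and 42.7, 37 and 27.4 CPM in WT HC. AT12CYS-2, a small mitochondrial protein with paired cysteines, was at 114 and 106 CPM in pglp1 LC and 0.0974, 0.0694 and 0 CPM in WT LC, beside 2.34 and 2.08 CPM in pglp1 HC and 0.118, 0.0142 and 0 CPM in WT HC. TPS2 had 47.5 and 107 CPM in pglp1 LC, 103 and 45.6 CPM in pglp1 HC and no count in any of the 6 WT libraries. Its interaction was not called by edgeR (0.06). With WT at 0 in both CO2 levels, that test cannot show whether the pglp1-WT difference is the same in LC and HC. UPOX, by contrast, was at 5.94 and 6.3 CPM in pglp1 HC and 3.78, 3.55 and 4.59 CPM in WT HC (interaction 7.16, edgeR adjusted p = 5.2e-06).

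Leaves of shm1, which lack mitochondrial serine hydroxymethyltransferase, and of glyk1, which lack glycerate kinase at the last step, were compared directly with pglp1 in the same air. Against shm1 LC, 4871 loci (23.8%) were higher and 6083 (29.8%) lower in pglp1. Against glyk1 LC, 3847 loci (18.8%) were higher and 4945 (24.2%) lower, and without glyk1 LC replicate 1 the higher loci numbered 2564. Photosynthesis genes were higher in pglp1 than in shm1, with 16 light-harvesting genes of 20 higher and none called lower by edgeR (median 3.19) and 18 Calvin-Benson genes of 23 higher and 1 lower (median 3.18). Against glyk1 these counts were 7 and none, and 12 and 1, with medians of 0.78 and 1.09. Photosystem subunit genes were higher against shm1 only. Of 21 such genes, 18 were higher and none was called lower by edgeR against shm1. Against glyk1 none of them was called higher by edgeR and 1 was lower. Heat shock genes were lower in pglp1, 12 of 22 against either mutant, with 2 higher against shm1 and 1 against glyk1.

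Both comparisons use the same pglp1 LC libraries, so they are given side by side. Some clock and mitochondrial genes were higher in pglp1 than in either mutant. Of 19 clock genes, 8 were higher and 8 lower against shm1, and 10 and 9 against glyk1. Of 19 mitochondrial stress genes, 9 were higher and 1 lower against shm1, and 10 and 1 against glyk1. Of all tested loci, 23.8% were higher and 29.8% lower against shm1, and 18.8% and 24.2% against glyk1. CCA1 was at 444 and 391 CPM in pglp1 LC, against 18.4 and 34.7 CPM in shm1 LC (3.98, edgeR adjusted p = 1.2e-06) and 35.4 and 36 CPM in glyk1 LC (3.55, edgeR adjusted p = 7.1e-06). NDB4 was at 270.3 and 189.9 CPM in pglp1 LC, against 13.2 and 10.4 CPM in shm1 LC (4.29, edgeR adjusted p = 9.5e-06) and 0.643 and 0.79 CPM in glyk1 LC (8.32, edgeR adjusted p = 8.5e-07). AT12CYS-2 was higher than in shm1 by 4.78 and than in glyk1 by 9.05 (edgeR adjusted p = 5.7e-06 and 8.2e-07). HEMA1 was higher by 3.76 and 3.55 (edgeR adjusted p = 0.00011 and 0.00031). UGT74E2, at 2496 and 3562 CPM in shm1 LC, was not called against shm1 (0.88, edgeR adjusted p = 0.405).

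TPS2 was almost absent from the other mutants, with 0.1 and 0.0934 CPM in shm1 LC and 1 count in all in glyk1 LC. Among the genes lowest in pglp1 against shm1, CYP89A6, a cytochrome P450, had no count in pglp1 LC, at least 2002-fold lower, and 246 and 476 CPM in shm1 LC. NAP12, an ABC transporter family member, had no count in pglp1 LC and 38.5 and 39.3 CPM in shm1 LC. Neither gene had more than 3 counts in all in WT LC, so both were high in shm1 rather than low in pglp1 beside WT. Among those lowest against glyk1, DIN10, a raffinose synthase induced in the dark, was at 11.2 and 22.5 CPM in pglp1 LC and 549.9 and 705 CPM in glyk1 LC (-5.22 ± 0.82, edgeR adjusted p = 0.00016). CYP79B2, an enzyme of indole glucosinolate and camalexin synthesis, was at 3.76 and 7.4 CPM in pglp1 LC and 225 and 197 CPM in glyk1 LC (-5.23 ± 0.57, edgeR adjusted p = 7.8e-06). PIN7, an auxin efflux carrier, was lower in pglp1 than in shm1 and glyk1, at 0.94 and 0.947 CPM in pglp1 LC, 31 and 8.07 CPM in shm1 LC and 20.7 and 30.9 CPM in glyk1 LC (-4.37 and -4.77, edgeR adjusted p = 1.26e-05 and 1.55e-05).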

How the data were processed

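Polyadenylated leaf RNA was sequenced from 22 libraries in 10 groups of genotype and CO2 level. Per the submitters' processing notes, CASAVA 1.8 and edgeR were used with the TAIR9 and TAIR10 builds, with no aligner named. Per the file headers, the authors deposited raw read counts and RPKM values for 25680 loci, and for each comparison a log2 fold change and a q-value (p-value column). Tests here used the counts alone, with edgeR 4.0.16 in R 4.3.3 (TMM, filterByExpr, 10 group means, robust quasi-likelihood F tests on all 22 libraries). Displaced rows of WT LC replicate 3, 3 blocks of 4920 loci, were left out of a second fit of 21 libraries, in which 3620 loci were tested beside 16818 in the first, and p-values were merged before adjustment. Named genes were both PGLP loci, the 10 highest and lowest called genes with a symbol, at least 10 CPM and no overlap, the called members of lowest p of each of 35 lists, by the same rule 5 per direction in the other contrasts, and defining steps of a list. The members and lists were chosen with earlier results of these data known. TruSeq v2 does not mark strand, so overlapping and antisense genes are uncertain. Counting intervals (95%, exact binomial) and floors of 3 counts cover counting error only. Depth limits genes near 0, since 1 count is 0.0803 CPM before the TMM adjustment in the shallower pglp1 LC library, and more after it. Promoters were read from TAIR10.1, whose chromosomes carry TAIR10 coordinates, for symbols of 25479 loci matched. The fit was tested on simulated counts. Alternatives were DESeq2 1.42.0, its size factors, no low-count filter, only the groups compared, all rows as deposited, the replicate number as a block, each replicate left out and a test against a log2 change of 1.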

Additional observations from a re-analysis of the deposited data

Results flagged for a closer look

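In all cases below the test of the difference itself, the edgeR interaction between genotype and CO2 level, was called, and each value is the log2 difference of pglp1 over WT in LC minus that in HC. Loci with a more positive difference in LC numbered 4203, and those with a more negative one 4156. Fits of genes with groups at 0 depend on the prior count and give no bound.

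Among genes higher in pglp1 LC, the interaction was 17.73 for GSTU3 (edgeR adjusted p = 0.0012), 16.10 for CYP96A5 (edgeR adjusted p = 0.00049), 15.74 for BHLH92 (edgeR adjusted p = 0.00019), 15.12 for SUC7 (edgeR adjusted p = 0.00037) and 14.73 for NAC3 (edgeR adjusted p = 0.0009). All 5 were silent or nearly so in pglp1 HC, whereas GSTU3 had 73.8 and 83.9 CPM in pglp1 LC and BHLH92, a basic helix-loop-helix factor, 54 and 59.2 CPM. No glutathione transferase had a log2 fold change above 11.52 in LC. The value of 17.73 for GSTU3 therefore also holds a negative pglp1-WT difference in HC, fitted with pglp1 at or near 0.

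Among genes lower in pglp1 LC, it was -13.36 for XTH31 (edgeR adjusted p = 0.0004), -7.92 for NUDT24 (edgeR adjusted p = 0.00021), -6.85 for RFC3 (edgeR adjusted p = 0.0002), -6.81 for the expansin EXPA11 (edgeR adjusted p = 0.0003) and -6.23 for PIN7 (edgeR adjusted p = 6.8e-06). PIN7 had 0.94 and 0.947 CPM in pglp1 LC and 57, 114.7 and 111 CPM in WT LC, beside 96.9 and 82.9 CPM in pglp1 HC and 119, 122 and 116 CPM in WT HC.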

How the results depend on the processing

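The 180 named genes gave 2114 values under the alternatives, of which 113 lost their call and none changed sign. Against a log2 change of 1 (glmTreat), higher and lower loci numbered 3248 and 3807 in pglp1 LC against WT LC, 2458 and 2004 in the interaction, 2778 and 3107 against shm1 LC, and 1467 and 1746 against glyk1 LC. With only the groups compared, 4205 loci were lower in pglp1 LC than in WT LC. Pairing was not stated in the labels, and the replicate 1 minus replicate 2 differences of pglp1 LC and WT LC correlated at -0.20. With the replicate number as a block, 5472 loci were higher and 6781 lower in pglp1 LC than in WT LC, and the block moved the list medians of carbonic anhydrases to 0.67, autophagy to 0.53 and phloem markers to 0.36.

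Other list medians moved by more than the spread of replicates. Those of low oxygen genes stood at 2.42 with DESeq2's size factors and 2.47 with DESeq2, and that of flower markers at -4.57 with DESeq2. With all rows as deposited, oxidative stress stood at 1.46 and heat shock at 2.33, and GOX1 lost its call (edgeR adjusted p = 0.0505). With each replicate left out in turn, loci higher than in glyk1 LC numbered 2564 to 3062. Medians of single lists then ran from -1.62 to -0.49 for chlorophyll synthesis, 0.91 to 1.72 for carbonic anhydrases, 0.53 to 0.97 for autophagy, 5.34 to 6.39 for mitochondrial stress, 1.34 to 1.58 for oxidative stress, 4.17 to 5.08 for singlet oxygen, 1.71 to 3.01 for senescence and 2.53 to 3.37 for jasmonate. They ran from 0.47 to 0.97 for phosphorylated serine synthesis, 2.14 to 3.35 for heat shock, 2.13 to 2.84 for low oxygen, -3.69 to -2.42 for wall loosening, 0.17 to 0.53 for reference genes, -1.10 to -0.78 for epidermis markers and -8.10 to -6.46 for the flower marker. Signs differed within the range for carbon starvation (-0.38 without pglp1 LC replicate 2, up to 0.95), abscisic acid (-0.50 to 0.93), stomatal movement (-0.12 to 0.76), salicylic acid (-0.0901 to 1.303), nitrogen (-0.11 to 0.43), phloem (-0.21 to 0.51) and root markers (-1.78 to 5.06). Signs also differed for photorespiration (-0.01 to 0.37), light harvesting (-0.35 to 0.55) and electron transport with photoprotection (-0.15 to 0.17). Without WT LC replicate 1 the medians of chlorophyll breakdown (0.04), endoplasmic reticulum stress (0.04) and anthocyanin genes (0.11) turned positive. The cause was not tested. Where pglp1 LC keeps 1 library, it is assumed to vary like the other groups. Depth limits genes near 0, where 1 count decides a fold.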

Other observations

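Gene families named by the deposited annotation, chosen with results known, gave further counts. Of 468 genes for pentatricopeptide repeat proteins, which bind RNA in plastids and mitochondria, 367 were lower and 17 higher in pglp1 LC than in WT LC, with a median log2 fold change of -2.01. Of 48 histone genes 26 were lower and 3 higher (median -1.42), and of 35 tubulin genes 21 were lower and 2 higher (median -1.14). Of 46 genes for MATE efflux proteins 25 were higher and 3 lower (median 1.27), and of 120 UDP-glycosyltransferase genes 48 were higher and 35 lower (median 0.57). Plastid ribosomal proteins had 29 of 94 genes lower and 3 higher (median -0.34), close to the median of all tested loci.

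In the authors' deposited table, q was under 0.05 for 535 higher and 27 lower loci of this comparison. All 535 higher loci were also called higher here, which is 9.76% of those called here. Of the 27 lower loci, 23 were also called lower here (85.2%), and 4 were called in the opposite direction. The table's calls included 47 higher and 4 lower loci on displaced rows.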
